A study of Homo sapiens with 4 samples.

Results

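The surface antigens known by a cluster of differentiation (CD) number, and ANPEP, the gene of CD13, were read in naive NB4 cells and in an ATO resistant NB4 line. NB4 is an established line from human acute promyelocytic leukemia (APL) that carries the PML-RARA fusion, ATO is arsenic trioxide, and both lines share that origin and were cultured in RPMI with FBS. The resistant line is an in-house clone, written NB4-VM-AsR1 in the labels and NB4-EV-AsR1 in the methods, and it was kept off ATO for the week before RNA was taken. Each line gave 2 independent flasks and each flask 1 array, so that 4 one-colour Agilent arrays on a single slide were compared. A single resistant clone was studied, and a change in it cannot be told apart from a difference that arose when the clone was picked.

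The members were all genes of the array design whose name is CD followed by digits and at most 1 closing letter, with ANPEP added. That pattern took 103 names, of which 26 were accession names of expressed sequence tags on 27 probes and were set aside. None of the 21 tested probes of these tags was called changed. The remaining 77 genes, out of 30811 names on the array, were measured by 116 probes, 46 of them by a single probe. Antigens that the design lists under another symbol, such as the integrins, are not members, and CD5L, which the pattern takes, is a secreted protein and no CD antigen.

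A CD number is given to a cell surface molecule once a set of antibodies is shown to bind it, so the family is defined by antibody binding and not by sequence or function. Panels of such antibodies assign leukemic cells to a lineage and a stage of maturation in flow cytometry. Promyelocytes of APL typically carry the myeloid antigens CD13 and CD33, and typically lack or show little of CD34 and HLA-DR, which mark earlier progenitors. The arrays measured the transcripts of these genes, and no surface protein was measured on them.

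Values are log2 of the processed signal relative to the 75th percentile of the same array, so that 0 is the level of that percentile and each unit is a doubling. Levels are compared for the same probe between arrays and not between genes, since probes differ in brightness. Sums over a marker list add the signals of different probes and are likewise read between arrays only. A probe entered the test where both arrays of either line read it well above background, in the scanner software's own call. A change was called at a Benjamini-Hochberg adjusted p below 0.05 in limma, over 28221 probes, with a change of at least 2-fold. Each gene stands by its tested probe of highest mean signal.

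Of the 77 genes, 57 were tested. The other 20 comprised 14 that no array read above background and 6 that were above it on 1 naive array only. Of the tested genes 50 were above background on all 4 arrays. The naive arrays read 58 and 59 member genes above background and the resistant arrays 54 and 54. CD63 was the one member with a saturated spot, on 1 array.

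In the resistant line 8 of the 57 tested antigens (14.0%) were called changed, of which 7 (12.3%) were lower and 1 (1.75%) was higher. Over all 20964 genes tested, taken by their brightest probe in the same way, 5.47% were called, with 2.98% lower and 2.49% higher, and over all probes 5.27% were called. The antigens called lower were CD3D, CD8A, CD70, CD3G, ANPEP, CD9 and CD79B, and CD74 was called higher. Of these, CD3D, CD3G and CD74 entered the test through the only line in which they were above background, so their call was tied to that filter. Where a probe had to be above background on all 4 arrays, 51 antigens were tested and 4 were called, namely ANPEP, CD70, CD8A and CD9, against 3.16% of genes. Normexp background correction was run with an offset of 50, a constant added to every signal, which weighs most on dim probes. With it limma called 0 antigens, with 7 at an unadjusted p under 0.05. With the spots of bright local background reset to the median background of their array, the same correction called 8 antigens, of which 5 (ANPEP, CD3D, CD70, CD8A and CD9) were among those named above. The Benjamini-Hochberg adjusted t-test also called 0, with 19 at an unadjusted p under 0.05. The counts at an unadjusted p and with the reset have no share over all genes beside them, and are not compared with the array.

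The naive and resistant values did not overlap in 41 of the 56 antigens read on all arrays (73.2%), against 53.6% of genes. Among the tested antigens 36 were lower and 21 higher in the resistant line, whether or not they were called. Their median log2 change was -0.18, beside -0.01 over all genes, and the median size of the change was 0.48 beside 0.34. With 2 flasks a line the smallest 2-sided p of an exact permutation test is 0.333, and the calls therefore rest on limma's pooling of the spread over probes.

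**Figure D1:**
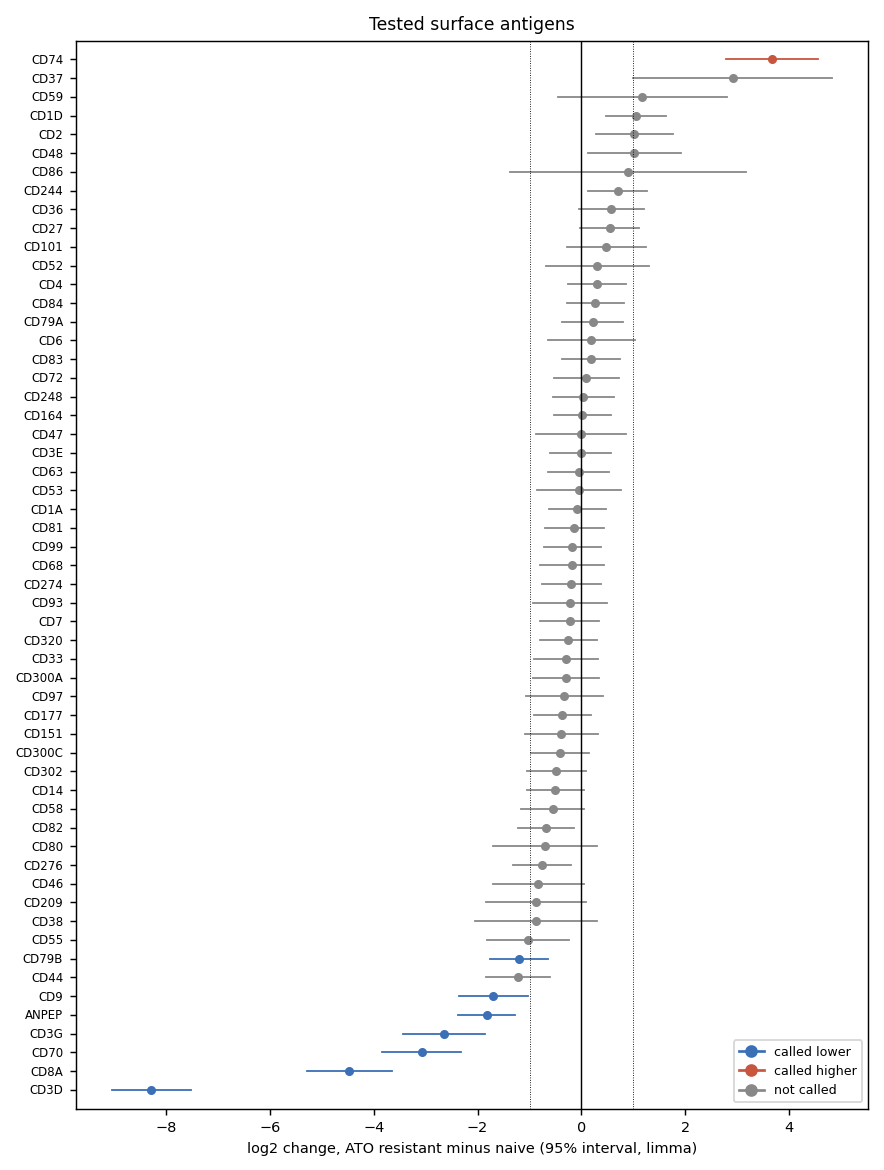
Log2 change of 56 of the 57 tested antigens, resistant minus naive, with its 95% interval from limma on the horizontal axis and the genes in order on the vertical axis. Dotted lines mark a 2-fold change. The 7 antigens called lower reach from -1.20 for CD79B to -8.29 for CD3D, and CD74 at 3.67 is the one called higher. The CD3D, CD3G and CD74 points include values not above background in one line and are not bounds.

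The T and NK cell antigens held the 2 largest decreases, those of CD3D and CD8A. Of 17 such genes 10 were tested, 3 fell and none rose. The counts of this and the following groups stand beside 2.98% of all genes called lower and 2.49% called higher. CD3D and CD3G were above background in naive cells only, and entered the test through them. The members that fell were CD3D and CD3G, chains of the CD3 complex that carries the signal of the T cell receptor, and CD8A, the alpha chain of the CD8 coreceptor. The stretches of the probes by which these were read are shown because each reading rests on this one probe of the gene. They are bases 1 to 30 of the 60 bases of the probe, as the scanner files give them, with no part marked.
CD3D: acagatatatacaaggacaaagaatctacc
CD3G: gttcccagagatgacaaatggagaagaaag
CD8A: caaacatgcacttccttgcttaaggtatgg
In hg19 the CD3G probe lies at chr11:118223931-118223990 and the CD8A probe at chr2:87011941-87012000. The files give no position for the CD3D probe. Whether a probe lies in coding sequence or in a UTR is not given in the sources used here.

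CD3D read 0.70 and 1.16 in the naive flasks, and -7.61 and -7.11 in the resistant flasks. The naive flasks stood above the 75th percentile of the array, while neither resistant array was above background. CD3D was at least 169-fold lower in the resistant line (log2 change -8.29, SE 0.30, adjusted p = 0.000755 in limma). With normexp background correction the change was -3.72 and was not called (adjusted p = 0.58 in limma). With bright local backgrounds reset before that correction it was -4.77 and was called (adjusted p = 9.7e-05).

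CD8A read -1.25 and -1.14 in the naive flasks against -5.28 and -6.06 in the resistant flasks, where it was still above background on both arrays. The lines were separated by far more than the flasks of either line. The decrease was 22.2-fold (log2 change -4.47, SE 0.32, adjusted p = 0.00256 in limma). With normexp the change was -1.77 and was not called (adjusted p = 1), and with bright local backgrounds reset it was -2.53 and was called (adjusted p = 0.00061). CD8B, which pairs with CD8A, was above background on 1 naive array only and was not tested.

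CD3G was a dim probe at -5.25 and -5.43 in naive cells, and at -8.34 and -7.64 in resistant cells, where neither array was above background. It was at least 2.19-fold lower in the resistant line (log2 change -2.65, SE 0.31, adjusted p = 0.0110 in limma). Without resistant flask 1 the adjusted p was 0.059. With normexp background correction the log2 change was 0.16, the 1 reversal of direction among 17 alternatives. With bright local backgrounds reset before that correction CD3G stayed lower and was not called. Its direction thus depended on the background correction used.

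CD3E, the remaining CD3 chain that pairs with CD3D and CD3G, lies between MPZL2 and CD3D on chromosome 11, and CD3G follows CD3D. It read -4.34 and -4.05 in naive cells and -4.24 and -4.17 in resistant cells. The values of the lines overlapped, with a log2 change of -0.01 (95% interval -0.60 to 0.58), and its second probe changed by -0.43 with adjusted p = 0.448 in limma. CD247, the zeta chain of the receptor, was above background on 1 naive array only.

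The 250 bases before the annotated start of CD3D are shown because this gene had the largest change of the members. The sequence is that of RefSeq in GRCh38.p14, chr11:118342706-118342955 on the minus strand. Capitals mark each match on either strand of GAGGAA, the core bound by PU.1 and related ETS factors, of the CCAAT box with those letters, and of the TATA box as TATAAA.
CD3D promoter: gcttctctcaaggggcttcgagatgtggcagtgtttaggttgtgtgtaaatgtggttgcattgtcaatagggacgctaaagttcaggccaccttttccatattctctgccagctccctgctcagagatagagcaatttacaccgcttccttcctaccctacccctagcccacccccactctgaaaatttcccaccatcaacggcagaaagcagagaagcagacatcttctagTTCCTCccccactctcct
The window holds the ETS core once, on the opposite strand (as TTCCTC), and neither of the others. In windows of the same length the ETS core is present in 23.6%, the CCAAT box in 32.0% and the TATA box in 10.7% of 35116 promoters. Among the 88 promoters of the 55 member genes in the table these shares were 36.4%, 22.7% and 4.5%. A match describes the letters of the window and is no site of binding.

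The other 7 tested T and NK cell antigens were not called. CD4, the coreceptor that monocytic cells also carry, read 2.70 and 2.86 in naive and 3.05 and 3.11 in resistant cells (log2 change 0.29, 95% interval -0.27 to 0.85). CD2, an adhesion receptor of T cells, read -5.11 and -4.90 in naive and -4.29 and -3.67 in resistant cells. All of its resistant values were above the naive ones, and the log2 change of 1.02 did not pass the test (SE 0.30, adjusted p = 0.151 in limma). The remaining ones, among them CD7 and CD244, a receptor of NK cells, changed by -0.23 to 0.70. CD28, CD96, CD160 and CD226 were above background on no array.

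The T cell marker list, which itself holds CD3D, CD3G, CD3E and CD2, was read beside these calls. Of its 7 genes 6 are on the array and 5 were tested, and TRAT1 was above background on no array. The summed signal of the list, in multiples of each array's 75th percentile, was 1.77 and 2.41 in naive and 0.146 and 0.176 in resistant cells. Without CD3D the sums were 0.142 and 0.170 in naive, and 0.141 and 0.169 in resistant cells. The sum thus differed between the lines through CD3D. In RNA of whole flasks, fewer cells that carry a transcript and less of it in each cell cannot be told apart.

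**Figure D2:**
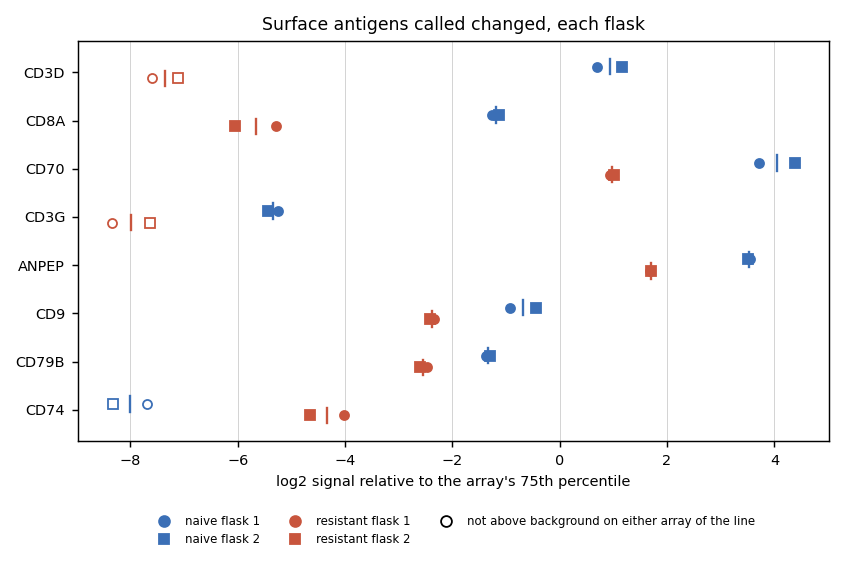
The 8 called antigens on each of the 4 arrays, as log2 signal relative to the array's 75th percentile on the horizontal axis, with a vertical tick at the mean of each line. Blue is naive and red is resistant, circles are flask 1 and squares flask 2, and open points belong to a line in which no array was above background. In each gene the values of the lines lie apart, and the open points are those of CD3D and CD3G in resistant and CD74 in naive cells.

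Among costimulatory and checkpoint proteins 1 of 7 tested genes fell and none rose. It was CD70, a TNF family ligand of CD27, which activated lymphocytes and some leukemic cells carry. It was read by this probe, of which bases 1 to 30 are given, at chr19:6585857-6585916 in hg19.
CD70: tggtggcaggacaagagaaggcattgagct
CD70 read 3.71 and 4.39 in naive cells, and 0.94 and 1.00 in resistant cells. It was well above background in all 4 flasks, and every naive value was above every resistant one. The decrease was 8.43-fold (log2 change -3.08, SE 0.30, adjusted p = 0.00598 in limma). Over all alternatives of processing and of flasks left out, the log2 change ran from -3.42 to -2.74. Its receptor CD27 read -4.86 and -4.72 in naive and -4.19 and -4.30 in resistant cells, a log2 change of 0.54 that was not called (adjusted p = 0.275 in limma).

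The 6 costimulatory genes tested and not called had log2 changes of -0.76 to 0.90. CD83 read 1.95 and 1.80 in naive and 2.03 and 2.10 in resistant cells. CD276, known as B7-H3, read -3.25 and -3.34 in naive and -4.11 and -3.99 in resistant cells, with adjusted p = 0.153 in limma. For CD86, a ligand of CD28, the naive flasks themselves lay apart, at -2.76 and -0.08, and the resistant flasks at -0.97 and -0.06 overlapped with them. A second CD86 probe was above background in the resistant flasks only, where it was at least 3.95-fold higher (log2 change 3.26, adjusted p = 0.0720 in limma). Neither CD86 probe was called.

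Of 19 myeloid and progenitor antigens 13 were tested, 1 fell and none rose. The one that fell was ANPEP, aminopeptidase N, which trims peptides at the cell surface and is the CD13 of myeloid panels. Bases 1 to 30 of its one probe are shown, and the files give this probe no position in hg19.
ANPEP: caaggtctggtctgggactttgtccagagc
ANPEP read 3.54 and 3.50 in naive cells, and 1.69 and 1.70 in resistant cells. The flasks of each line nearly coincided, and both resistant values were below both naive ones. The decrease was 3.55-fold (log2 change -1.83, SE 0.22, 95% interval -2.37 to -1.28, adjusted p = 0.0112 in limma). Without resistant flask 1 or without resistant flask 2 the change was -1.82 and -1.83, and the adjusted p was 0.13 in either case.

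RefSeq gives ANPEP more than one start, and which of them was used was not tested. The 250 bases before each of 2 starts are shown because ANPEP is the myeloid antigen that fell. They lie on the minus strand of GRCh38.p14, at chr15:89814853-89815102 for the upstream start and at chr15:89806629-89806878 for the downstream start.
ANPEP upstream promoter: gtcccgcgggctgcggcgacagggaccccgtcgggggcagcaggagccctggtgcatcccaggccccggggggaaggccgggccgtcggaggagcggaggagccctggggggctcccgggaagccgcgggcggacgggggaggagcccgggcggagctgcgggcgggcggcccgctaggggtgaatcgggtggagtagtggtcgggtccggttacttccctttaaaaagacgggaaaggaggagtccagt
ANPEP downstream promoter: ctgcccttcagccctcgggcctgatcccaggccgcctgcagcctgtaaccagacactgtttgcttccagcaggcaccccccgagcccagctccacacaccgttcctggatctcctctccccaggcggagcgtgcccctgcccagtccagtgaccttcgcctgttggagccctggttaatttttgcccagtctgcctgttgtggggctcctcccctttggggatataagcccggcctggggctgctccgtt
No letters are in capitals because neither window holds any of the motifs searched in the CD3D window on either strand. The windows differ in base composition, with 74.0% and 64.4% G and C.

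The myeloid antigens that were not called included CD33, a sialic acid binding receptor carried by nearly all APL cells. It read 2.84 and 3.16 in naive and 2.63 and 2.80 in resistant cells. The resistant values were just below the naive ones, and the log2 change of -0.29 (95% interval -0.91 to 0.32) had adjusted p = 0.564 in limma. A second CD33 probe changed by -0.28. The CD33 transcript and the ANPEP transcript were thus both well above background in all flasks, and only ANPEP passed the test. The difference between their changes was not tested.

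CD38, a nucleotide-hydrolysing enzyme of progenitors and plasma cells, read -0.47 and -1.82 in naive and -2.02 and -2.01 in resistant cells. One naive flask stood well above the other 3 flasks. Its log2 change was -0.88 (SE 0.47, adjusted p = 0.384 in limma). Without naive flask 2 it was -1.55, and without naive flask 1 it was -0.20. CD34, the sialomucin of early progenitors, was above background on none of the 4 arrays by either of its 2 probes.

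CD300A, an inhibitory receptor, read 0.54 and 0.91 in naive and 0.33 and 0.53 in resistant cells. Its second probe changed by -0.89 with no overlap and was not called (adjusted p = 0.115 in limma). CD302 changed by -0.48, and by 0.02 in its second probe. CD93, CD68, CD14, CD300C, CD209 and CD177 also had lower means in the resistant line, by -0.18 to -0.87, and none of these was called. CD36, a scavenger receptor, and CD101 had higher means, by 0.58 and 0.48. The median log2 change of the 13 genes was -0.37. CD109, CD163, CD180 and CD207 were not above background in either line.

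**Figure D3:**
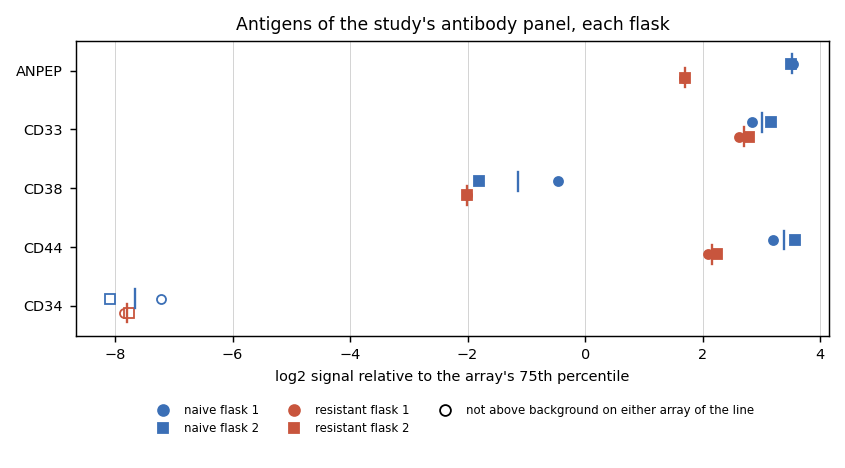
5 members that the study also stained with antibodies, on each of the 4 arrays, as log2 signal relative to the array's 75th percentile on the horizontal axis, with a tick at the mean of each line. The study reports those stains on patient cells or NB4 cells, and none on the resistant line. Blue is naive, red is resistant, circles are flask 1, squares flask 2, and the open points of CD34 are not above background. ANPEP is separated by 1.83 on this scale, and the naive CD38 values spread from -1.82 to -0.47.

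Tetraspanins are small membrane proteins that gather integrins and other receptors into surface domains, and 1 of the 7 tested fell and none rose. CD9 read -0.93 and -0.44 in naive, and -2.34 and -2.43 in resistant cells. Both resistant values were below both naive ones, a decrease of 3.26-fold (log2 change -1.70, SE 0.26, adjusted p = 0.0277 in limma). Without resistant flask 1 or without resistant flask 2 the adjusted p was 0.19 and 0.23. Bases 1 to 30 of the CD9 probe, for which the files give no position, were the following.
CD9: catctggggatattcccacaaggatgaggt

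CD37, a tetraspanin of mature leukocytes, had the highest change of the members above background on all arrays. It read -4.52 and -2.16 in the naive flasks, and -0.35 and -0.50 in the resistant flasks. The naive flasks lay 2.36 apart, and the log2 change of 2.91 was not called (SE 0.76, adjusted p = 0.118 in limma). With all flasks kept, CD37 was called higher only with scale normalization and with the reset normexp. Without naive flask 1 the change was 1.73, and without naive flask 2 it was 4.10. The direction was the same without either flask.

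CD63, of granule and lysosome membranes, read 5.90 and 5.68 in naive and 5.65 and 5.83 in resistant cells. CD81 read 3.45 and 3.66 in naive and 3.47 and 3.37 in resistant cells. The values of the lines overlapped in both. CD82, known as a suppressor of metastasis, read 2.68 and 2.68 in naive and 1.97 and 2.02 in resistant cells, and its log2 change of -0.68 had adjusted p = 0.179 in limma. CD53 and CD151 changed by -0.05 and -0.39.

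Of 6 B cell antigens 5 were tested, 1 fell and 1 rose. CD74, which rose, is the invariant chain that escorts class II histocompatibility molecules. CD79B, which fell, is a signalling chain of the B cell receptor. Bases 1 to 30 of their probes are shown, since each was read by this single probe, at chr5:149792222-149792281 and chr17:62007153-62007212 in hg19.
CD74: aagatcagaagccagtcatggatgaccagc
CD79B: cgctgaaggatggtatcatcatgatccaga
CD74 read -7.69 and -8.33 in naive cells, where neither array was above background, and -4.02 and -4.65 in resistant cells, where both were. It was at least 3.80-fold higher in the resistant line (log2 change 3.67, SE 0.35, adjusted p = 0.00552 in limma). With normexp background correction the change was 0.69 and was not called (adjusted p = 1). With bright local backgrounds reset before that correction CD74 stayed higher and was not called. Even in resistant cells this probe stayed far below the 75th percentile of the array.

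The 250 bases before the start of CD74 are given because CD74 was the one member called higher. They lie at chr5:150412911-150413160 on the minus strand of GRCh38.p14, and capitals again mark the same motifs on either strand.
CD74 promoter: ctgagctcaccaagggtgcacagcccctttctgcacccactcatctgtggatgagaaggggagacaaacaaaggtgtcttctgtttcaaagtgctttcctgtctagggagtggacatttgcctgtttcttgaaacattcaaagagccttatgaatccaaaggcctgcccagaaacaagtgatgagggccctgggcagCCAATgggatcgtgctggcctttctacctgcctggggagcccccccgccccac
The CCAAT box is present once, and the other motifs are not in this window. HLA-DRA, a class II gene whose product CD74 escorts, read -8.53 and -8.46 in naive and -8.60 and -8.84 in resistant cells and was above background on no array.

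CD79B read -1.38 and -1.30 in naive, and -2.47 and -2.61 in resistant cells. The lines did not overlap, and the decrease of 2.30-fold was the closest to the threshold of all calls (log2 change -1.20, SE 0.22, adjusted p = 0.0466 in limma). It was lost in 10 of 18 alternatives, among them the replicate number as a block (adjusted p = 0.081). Without resistant flask 1 or without resistant flask 2 the adjusted p was 0.36 and 0.52. CD79A, its partner, read 0.32 and 0.03 in naive and 0.36 and 0.42 in resistant cells, a log2 change of 0.22 (95% interval -0.38 to 0.81).

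CD72 changed by 0.09, and CD22 was above background on no array. Of the 7 B cell markers, CD22, MS4A1, PAX5 and BLNK were above background on no array. The summed signal of that list was 1.77 and 1.51 in naive and 1.69 and 1.77 in resistant cells.

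The 10 adhesion, sialomucin and widely expressed surface proteins were all tested, and none was called. CD44, the hyaluronan receptor, came closest. It read 3.20 and 3.57 in naive cells and 2.10 and 2.24 in resistant cells, with no overlap. Its log2 change of -1.22 (SE 0.25, 95% interval -1.85 to -0.60) had adjusted p = 0.0619 in limma. Over all alternatives of processing and of flasks left out, the log2 change of CD44 ran from -1.41 to -1.04. With all flasks kept, it was called with the reset normexp, an intensity trend in limma and the unadjusted t-test. The other alternatives with all flasks did not call it.

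CD320, CD99 and CD97, which the current annotation names ADGRE5, changed by -0.26, -0.18 and -0.33 by the probe that stands for each. The second CD97 probe read 1.08 and 1.31 in naive and 0.56 and 0.33 in resistant cells, a log2 change of -0.75 with no overlap that was not called (adjusted p = 0.180 in limma). The second CD99 probe changed by -0.43. CD47, the signal that restrains phagocytes, read 2.81 and 1.94 in naive and 2.33 and 2.40 in resistant cells, with the resistant flasks between the naive ones. CD48, a ligand of CD244, changed by 1.02 (adjusted p = 0.215 in limma), and CD244 itself by 0.70 (adjusted p = 0.186). CD58, the ligand of CD2, changed by -0.55. The ranges within this group ran from -1.22 to 1.02, with a median of -0.09.

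The 3 complement regulators, which protect cells from lysis, were tested and none was called. CD55 and CD46 read lower in the resistant line by -1.03 and -0.83, and CD59 higher by 1.17. The brightest CD55 probe lacked a value on resistant array 1, so its fit rests on 3 arrays, and a second CD55 probe changed by -1.07 (adjusted p = 0.106 in limma). All 3 tested CD46 probes were lower in the resistant line. CD59 read 2.73 and 0.77 in the naive flasks, and 2.82 and 3.02 in the resistant flasks. Naive flask 2 stood apart from the other 3 flasks. Without naive flask 1 the CD59 change was 2.15, and without naive flask 2 it was 0.19. The other 3 CD59 probes were also higher in the resistant line, by 0.81, 0.75 and 0.78, and none was called. One of them read -2.08 and -2.06 in naive and -1.36 and -1.22 in resistant cells, so that its naive flasks agreed and the lines did not overlap (adjusted p = 0.140 in limma).

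Of the CD1 family, which presents lipid antigens, CD1D and CD1A were tested. CD1D read -2.63 and -2.63 in naive and -1.70 and -1.46 in resistant cells. The naive flasks agreed closely and both resistant flasks were higher. Its log2 change of 1.05 was not called (SE 0.23, adjusted p = 0.0744 in limma). Over all alternatives of processing and of flasks left out, it ran from 0.79 to 1.17. CD1A changed by -0.08, and CD1B, CD1C and CD1E were above background on no array.

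**Figure D4:**
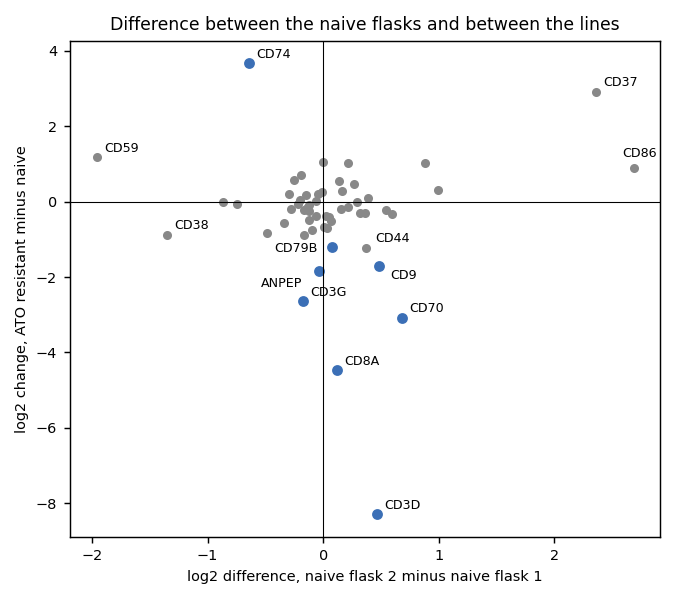
The tested antigens reported here that were read on all 4 arrays, with the log2 difference between naive flask 2 and naive flask 1 on the horizontal axis and the log2 change between the lines on the vertical axis. Blue points were called changed. CD37 and CD86 lie far to the right and CD59 and CD38 far to the left, and the called antigens lie within 1 unit of 0 on the horizontal axis.

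The naive flasks lay more than 2-fold apart in 4 tested antigens, CD37, CD38, CD59 and CD86, and the resistant flasks in 2, CD209 and CD80. The SD of the difference between the naive flasks was 0.68 over the tested antigens and 0.71 over all tested probes. Between the resistant flasks it was 0.39 and 0.37. The antigens shared this wider naive spread with the rest of the array. With 1 flask left out, the spread came from the line that kept 2 flasks. The numbers called in those fits therefore do not compare the lines. They are given in the closing section beside those over all probes.

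Of 21 antigens with several tested probes, 17 changed in the same direction by every probe, and none was called by any probe. Each of the 8 called antigens has a single probe on the array, so that no second probe bears on its call. The exceptions in direction were CD164, CD47, CD302 and CD209. The probes of CD86, CD6 and CD209 lay furthest apart. The second CD6 probe was above background in resistant flasks only and at least 1.45-fold higher there, while the brightest CD6 probe changed by 0.19.

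**Figure D5:**
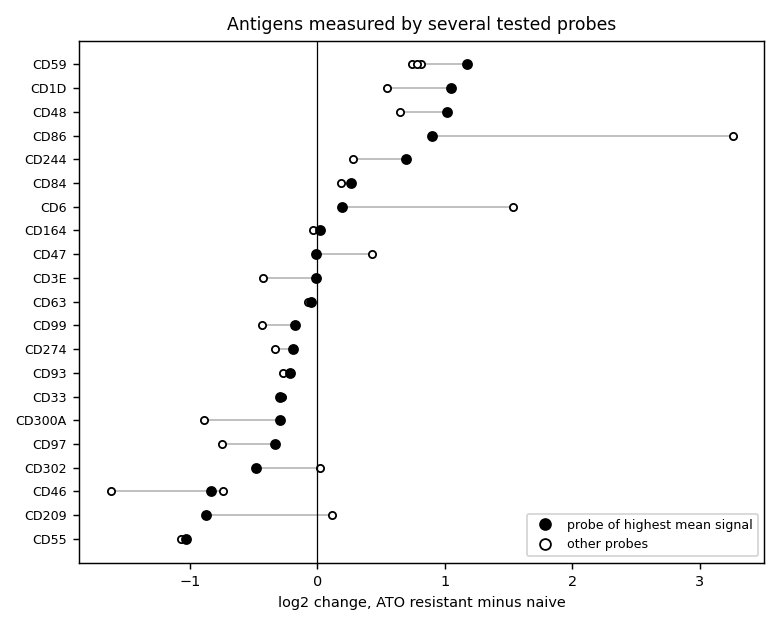
Log2 change, resistant minus naive, on the horizontal axis for every tested probe of the 21 antigens with several tested probes on the vertical axis. Filled points are the probe of highest mean signal and open points the others. In 17 of the 21 all points lie on the same side of 0, and the CD86 probes span 0.90 to 3.26.

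The CD antigens that the array lists under another symbol were read from a fixed list, for comparison. Of 83 such genes 82 are on the array and 63 were tested, of which 3 rose and 6 fell (14.3% called), with a median log2 change of -0.06. The integrin chains ITGAL (CD11a) and ITGAM (CD11b) rose by 3.01 and 2.01, and SELPLG, the ligand of P-selectin, by 1.90. TLR2, a receptor of bacterial lipoproteins, was not above background in resistant cells and was at least 62.7-fold lower. It entered the test through naive cells only, so its call was tied to that filter. CR1, ICAM2, ITGA2B and ITGA6 fell by 3.81, 3.22, 2.40 and 1.72. ITGA2B was called by 1 of its 2 probes, and CR1 by all 3. The antigens of this list were thus called about as often as the members, and the difference was not tested. Both shares include genes that entered the test only through the line in which they were high.

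Among the other antigens of the antibody panel, IL3RA (CD123) read 0.94 and 1.31 in naive and -0.68 and -0.56 in resistant cells. It fell by 1.74 on the log2 scale (SE 0.25, adjusted p = 0.0210 in limma), and without resistant flask 1 or without resistant flask 2 the adjusted p was 0.20 and 0.16. ITGA4 and ITGA5, chains of the fibronectin receptors, changed by -0.55 and -0.16, CXCR4 by -0.12 and PTPRC (CD45) by 0.49, and none of these was called. The CXCR4 change turned to 0.066 under scale normalization. ANPEP and IL3RA were thus the panel genes called, out of 10 tested of 12.

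Of the promyelocyte markers 8 were on the array and tested, and all were read above background in the resistant line. MPO was saturated on all 4 arrays and CTSG and MYB on 2 each, and ELANE and AZU1 were called higher in resistant cells. ELANE was above background on 1 naive array only and entered the test through the resistant line. AZU1 was near the threshold (adjusted p = 0.0472 in limma), and CEBPE changed by -0.62 and was not called. The summed signal of the promyelocyte markers was 227 and 211 in naive and 242 and 282 in resistant cells, in multiples of the array's 75th percentile. It includes the saturated readings of MPO, CTSG and MYB. None of the erythroid or stromal markers was called. ITGA2B among the megakaryocyte markers, by 1 of its 2 probes, and KRT18 among the epithelial markers were called lower. The part of these markers in the changes of the antigens was not tested.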

How the data were processed

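Cy3-labeled RNA from 2 naive NB4 flasks and 2 flasks of the resistant line was put on whole human genome 4x44k arrays, all on 1 slide. The authors deposited scanner output from Agilent Feature Extraction 10.5.1.1, whose processed signal is a linear intensity after background subtraction and detrending. They further deposited log2 values per probe that GeneSpring GX had shifted to the 75th percentile. Positions of probes are those of the file headers' build, hg19.

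Here log2 of the processed signal was taken and the 75th percentile of each array subtracted, in R 4.3.3. Spots of a probe were averaged without control and outlier spots. Pearson's r with the deposited table was at least 0.9998. Lines were compared with limma 3.58.1 (lmFit, eBayes) and Benjamini-Hochberg adjustment over all tested probes. Lower bounds of a fold set the bright line's mean against the higher of the dim probe's own signal and the lowest signal above background on each array. Each array read 27922 to 28244 of 41000 probes above background and 457 to 565 as saturated. Precision is limited by there being 2 arrays a line. The fit was tested on simulated data.

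The members and all lists were chosen with earlier results of these data known. Named were the called antigens, the 5 highest and 5 lowest changes among those above background on all arrays, the 3 largest bounds each way, the antibody panel, and up to 4 examples of highest signal in a group. Other antigens were named for a value given beside one of these. Of 116 member probes 110 matched a RefSeq accession. Promoters are those of RefSeq, and CD3G, CD37, CD70, CD79B and CD3E have no entry in that table. Alternatives were other background corrections, normalizations, filters and tests, the deposited table, the mean over probes, the replicate number as a block, and each flask left out. One antigen that the rule names is not reported here.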

Additional observations from a re-analysis of the deposited data

How the results depend on the processing

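The count of 8 called antigens was 6 to 10 under quantile normalization, median shift, scale normalization, the reset normexp, no filter on dim probes, the deposited table, an intensity trend, no fold threshold, the mean over probes and the methods' t-test unadjusted. It fell to 0 with normexp background correction (7 at an unadjusted p under 0.05) and to 0 with the Benjamini-Hochberg adjusted form of the methods' t-test (19 unadjusted), and to 4 where all arrays had to be above background. Over all probes these counts were 0, 0 and 760. For the alternatives with 6 to 10 called, and for unadjusted p, no counts over all probes are given here. Those antigen counts show how the calls held and do not set the antigens apart from the array. With normexp the median over all probes was 0.13 and that of the antigens 0.054. The numbers called higher and lower were 0 and 0 with normexp, 0 and 0 with the adjusted t-test, and 0 and 4 under the stricter filter. Those called higher were 2 with normexp where bright local backgrounds were reset, 2 with scale normalization and 2 with the unadjusted t-test. With 1 flask left out, taking the lone flask to vary like the other line's, 4 to 17 antigens were called, 1 to 7 higher and 3 to 10 lower, and 728 to 4538 probes.

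The CD3G change turned to 0.16 with normexp, and that of CXCR4 to 0.066 under scale normalization, while without 1 flask it ranged from -0.35 to 0.11, the highest without naive replicate 1. The cause was not tested. Reset normexp called 8, of which 5 were among the original 8. With the replicate number as a block 7 antigens were called, CD79B being lost. Deviations of same-numbered flasks correlated by 0.12 over 2 pairs, and the labels tie the numbers to no shared batch. No fit with the slide as a block was run, as there is 1 slide. Probes near background, such as those of CD3G and CD74, limit what can be read of their size.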
